A study of Mus musculus with 4 samples.

Results

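The MAP kinase phosphatases of the Dusp family were examined as 10 genes, taken by symbol (Dusp1, Dusp2, Dusp4 to Dusp10 and Dusp16) from a table of 21264 genes. They were read in 4 RNA-seq libraries of 1 group. The cells were donor-derived satellite cells (muscle stem cells), re-isolated after transplantation. The donors were iPax3 cells, myogenic progenitors made from pluripotent stem cells, and NICD3 (the intracellular, active part of the Notch3 receptor) was overexpressed in all 4 libraries. RNA was low in amount, and the cDNA was amplified before library construction with a kit that does not mark strand. The host strain, the age, the time after transplantation, the promoter driving NICD3 and the number of animals or clones are not stated in the labels. Whether the replicates are separate animals is also not stated, and the variation behind every SD and p-value may thus be technical. iPax3 cells without NICD3 are not analysed here, so nothing below separates an effect of NICD3 from the state of re-isolated cells.

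MAP kinase phosphatases remove the phosphates that switch on ERK, JNK and p38, from both the threonine and the tyrosine of the activation loop. They fall into classes by location and substrate. Dusp1, Dusp2, Dusp4 and Dusp5 are nuclear and encoded by inducible genes. Dusp6, Dusp7 and Dusp9 are cytoplasmic and prefer ERK. Dusp8, Dusp10 and Dusp16 prefer JNK and p38. In satellite cells, p38 and ERK signalling are linked to activation and proliferation, and several of the inducible members are immediate early genes that respond within minutes to stress, growth factors or the dissociation of tissue.

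Levels are given as CPM (counts per 1000000 reads) and, wherever genes are compared with each other, as CPM per kb of annotated exon. Errors are SD with n = 4 throughout. The libraries held 12544138 to 13302916 reads, and 1 read was worth 0.0752 to 0.0797 CPM. Mitochondrial transcripts took 0.533 to 1.82% of reads, most in replicate 4. All 10 listed satellite cell markers, among them Cd82, Cdh15 and Vcam1 as the highest per kb, reached 1 CPM in every library. Markers of other cells were present as well, with summed levels of 5457 to 8294 CPM for 8 fibro-adipogenic, 119.7 to 339 CPM for 8 endothelial, 723 to 1713 CPM for 8 mural (a list that holds Notch3 itself), 24.1 to 151 CPM for 8 macrophage, 360.0 to 554 CPM for 6 glial, 10.2 to 248 CPM for 6 tendon and 1337 to 2643 CPM for 8 myonuclear markers. The summed satellite markers lay at 4286 to 5421 CPM. These sums are not corrected for length or for the number of genes, so they do not rank the lists. Median levels were 43.5 CPM per kb for the satellite, 25.4 for the myonuclear, 18.7 for the glial and 13.1 for the mural list. They were 5.16 for the fibro-adipogenic, 4.30 for the macrophage, 3.04 for the endothelial and 1.98 CPM per kb for the tendon list. Kera (tendon) had no read. The fibro-adipogenic sum came almost wholly from Dpt, Col3a1 and Gsn, while Dcn had a mean of 20.1, Lum of 1.38 and Pdgfra of 0.768 CPM. The highest genes per kb of the other lists were Dpt, Col3a1 and Gsn (fibro-adipogenic), Eng, Tek and Cldn5 (endothelial), Acta2, Rgs5 and Notch3 (mural), Lyz2, Ctss and C1qb (macrophage), Ngfr and Sox10 (glial), Fmod, Thbs4 and Tnmd (tendon), and Acta1, Actn3 and Tnnt3 (myonuclear). What these cells contribute to the values below was not tested, and in bulk RNA fewer cells of a type and less RNA per cell cannot be told apart.

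Upstream sequence of 4 members is shown because letters of response elements known from inducible genes occur in Dusp1, Dusp5 and Dusp8 but not in Dusp6. These members were thus picked by their matches, which do not follow the classes. Dusp8 is a stress-kinase member, and the inducible nuclear member Dusp2 held no CRE and no CArG box. The 250 bases before the RefSeq transcription start (build GRCm38.p6, the assembly of mm10) were available for 8 of the 10 members. Both strands were searched for the cyclic AMP response element (CRE, TGACGTCA), its half-site (TGACG, which every CRE contains), the AP-1 element (TGANTCA), the CArG box bound by serum response factor, an ETS element (CCGGAAG), the Rbpj core (TGGGAA) and an E-box (CACGTG). Bases 250 to 51 before the start are printed 5′ to 3′ on the gene's strand. Capitals mark the CRE, its half-site and the CArG box.
Dusp1, chr17:26508523-26508722, minus strand: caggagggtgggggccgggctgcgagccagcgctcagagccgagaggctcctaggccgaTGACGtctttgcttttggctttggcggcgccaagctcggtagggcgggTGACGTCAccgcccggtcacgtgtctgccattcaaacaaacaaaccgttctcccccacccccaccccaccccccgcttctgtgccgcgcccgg
Dusp5, chr19:53528895-53529094, plus strand: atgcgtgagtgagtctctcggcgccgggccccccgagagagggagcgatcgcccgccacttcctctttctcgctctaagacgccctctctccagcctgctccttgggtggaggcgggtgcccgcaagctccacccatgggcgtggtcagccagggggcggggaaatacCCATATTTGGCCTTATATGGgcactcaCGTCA
Dusp8, chr7:142095335-142095534, minus strand: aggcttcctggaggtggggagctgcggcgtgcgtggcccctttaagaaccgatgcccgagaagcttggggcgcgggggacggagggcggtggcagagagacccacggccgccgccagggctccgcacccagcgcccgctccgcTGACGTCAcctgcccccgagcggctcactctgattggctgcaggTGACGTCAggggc
Dusp6, chr10:99262981-99263180, plus strand: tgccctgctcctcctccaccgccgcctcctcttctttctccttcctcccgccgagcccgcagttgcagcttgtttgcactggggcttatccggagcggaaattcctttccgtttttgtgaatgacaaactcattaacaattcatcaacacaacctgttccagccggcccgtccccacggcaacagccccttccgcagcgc
No printed base lies in an exon of its own strand in GENCODE M21. The printed windows of Dusp1 and Dusp8, and the searched window of Dusp10, lie inside the annotated gene span. The printed window of Dusp5 lies in an exon of an antisense RNA on the other strand. Closer to the start, 47 searched bases of Dusp1 and 36 of Dusp5 are exonic. Of the first 50 bases after the RefSeq start, 38 in Dusp8 and 47 in Dusp16 are in an annotated exon, so the annotations place these starts differently. Dusp1 held 1 CRE, starting 143 bases before its start, and a further half-site at 191 bases. Dusp8 held 2 CREs, at 107 and 63 bases. Dusp5 held 2 adjoining CArG boxes, at 82 and 72 bases, followed by a CRE half-site at 55 bases. Dusp16 had a half-site at 70 bases. Dusp1 and Dusp2 each had an E-box, at 126 and 109 bases, and Dusp2 had the Rbpj core at 207 bases. None of the 7 motifs was in the window of Dusp6, Dusp7 or Dusp10, and neither the AP-1 nor the ETS letters were in any of the 8. Among all 32851 RefSeq windows of this length, 1.55% held a CRE, 17.8% the half-site, 1.47% a CArG box, 6.02% the E-box, 21.6% the Rbpj core, 6.75% the AP-1 and 6.91% the ETS element. These shares are not matched for GC content. The windows of Dusp1, Dusp5, Dusp8 and Dusp6 held 68.4, 64, 71.6 and 56.4% GC, against a median of 52.4% over all windows. A match of letters is a description of the sequence and not a binding site. Genes with a CRE and at least 1 CPM in every library had a median of 8.54 CPM per kb (283 genes), against 6.86 CPM per kb over all 9086 such genes with a window. For the CArG box the median was 6.31 CPM per kb (138 genes). Medians were 8.58 for the ETS element, 7.77 for the CRE half-site and 7.74 CPM per kb for the E-box. They were 6.85 for the Rbpj core and 6.66 CPM per kb for the AP-1 element. The higher median was thus not particular to the CRE.

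**Figure D1:**
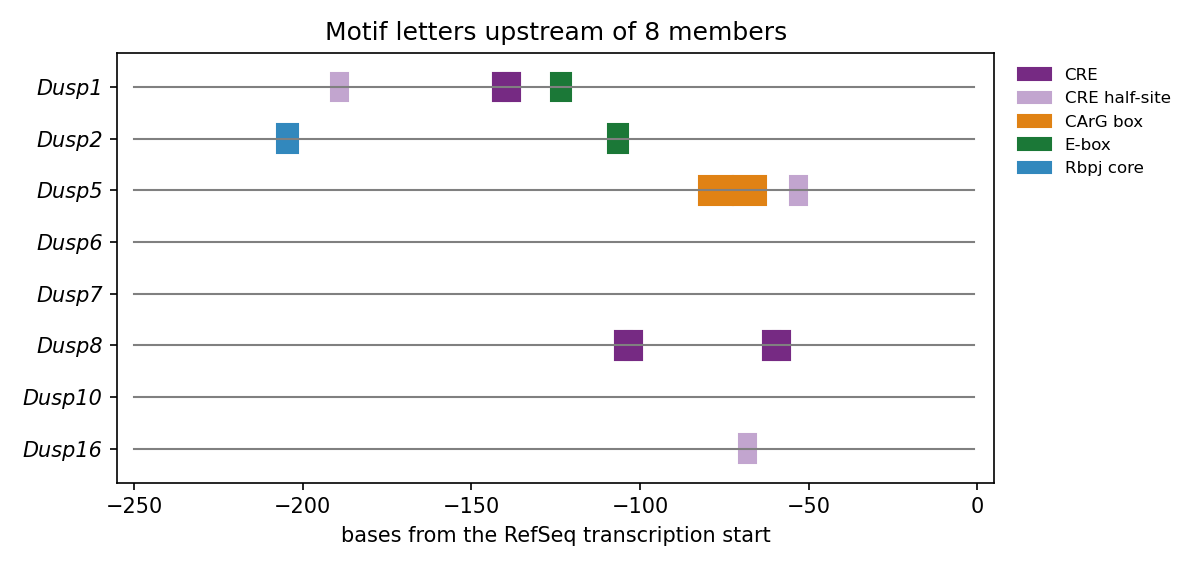
Positions of motif letters in the 250 bases before the RefSeq start of 8 members; the x axis is the distance from the start in bases, and coloured blocks are matches on either strand, drawn to scale. Dusp1 has 1 CRE and Dusp8 has 2, Dusp5 has 2 adjoining CArG boxes, and the windows of Dusp6, Dusp7 and Dusp10 hold none of the letters searched.

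Of the 10 members, 8 reached 1 CPM in all 4 libraries (all but Dusp7 and Dusp9), against 53.6% of all genes of the table. Their levels spanned a wide range. Among these 8 the highest mean per kb was 424 times the lowest. The median of all genes at 1 CPM or more in every library was 6.80 CPM per kb. Of the 8 members at that level, Dusp1, Dusp6, Dusp5 and Dusp10 lay above it, at means of 29.4 CPM per kb or more. Dusp8, Dusp16, Dusp4 and Dusp2 lay below it, at 4.91 CPM per kb or less. The median of all 10 members, 4.82 CPM per kb, also counts Dusp7 and Dusp9, so it is not a like comparison.

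Dusp1, the inducible nuclear phosphatase that acts on p38, JNK and ERK, stood far above the other members. The gene lies at chr17:26505590-26562128 on the minus strand (ENSMUSG00000024190, mm10). It had 5874, 2791, 5448 and 3332 CPM in replicates 1 to 4. Replicates 1 and 3 were high and 2 and 4 low, with no overlap with any other member. The mean was 4361 ± 1527 CPM, or 1317 ± 461 CPM per kb, and per kb the gene ranked 11th, 34th, 14th and 20th of 21215 genes in the 4 libraries. It alone made up 88.2 ± 6.80% of the summed CPM per kb of the 10 members.

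Dusp5, a nuclear phosphatase specific for ERK, was the next inducible nuclear member. It had 58.0, 133, 119 and 113 CPM (mean 105 ± 32.7 CPM, 42.6 ± 13.2 CPM per kb). Replicate 1 was low and the other 3 lay close together. The annotated antisense RNA AC137853.2 covers 22.1% of its exon bases (Ergic1 overlaps 0.332% of those of Dusp1, and Gm32786 1.36% of those of Dusp8), and as the libraries do not mark strand, reads from the RNAs cannot be told apart.

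Dusp4, a nuclear phosphatase of ERK and JNK, was low and even, with 10.4, 15.3, 9.03 and 13.8 CPM (12.1 ± 2.90 CPM, 4.42 ± 1.06 CPM per kb). Dusp2, best known from activated immune cells, had 8.68, 6.69, 4.67 and 4.86 CPM (6.23 ± 1.87 CPM, 3.11 ± 0.935 CPM per kb). Its counts were 111, 89, 61 and 61 reads. Replicate 1 was the highest for Dusp2, while the mean of the macrophage markers was lowest there, at 1.57 on the log2(CPM + 1) scale against 2.39 to 3.82 in the other libraries. The means of endothelial and mural markers were highest in replicate 1, at 4.53 and 5.74 on that scale. The endothelial mean was nearly as high in replicate 2, at 4.42. The part of these cells in the level of Dusp2 was not tested.

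Dusp6, the cytoplasmic ERK phosphatase that ERK signalling itself induces as a feedback brake, was the second most abundant member. It had 108, 294, 142 and 250 CPM (249.8 in replicate 4), with a mean of 198 ± 87.9 CPM or 63.3 ± 28.1 CPM per kb. Replicates 2 and 4 were high and 1 and 3 low, the reverse of Dusp1. In replicate 4 this reversal did not hold after the GC correction described below. The other cytoplasmic members were near the limit of detection. Dusp7 had 1.56, 0.601, 1.53 and 2.79 CPM, from 20, 8, 20 and 35 reads. Its 95% Wilson intervals ran from 0.305 to 1.19 CPM in replicate 2 and from 2.01 to 3.88 CPM in replicate 4, and these do not overlap. The intervals cover counting error only, and they belong to the lowest and the highest library. Dusp9, known from placenta, had 4 and 30 reads in replicates 1 and 2 (0.313 and 2.26 CPM) and none in replicates 3 and 4, where a count of 0 allows up to 0.230 and 0.239 CPM (3 reads) and the upper Wilson bounds are 0.294 and 0.306 CPM. Replicate 2, which held nearly all its reads, also had the highest means of macrophage and of myonuclear markers, at 3.82 and 7.18 on the log2(CPM + 1) scale. The myonuclear mean was nearly as high in replicate 3, at 7.11, where Dusp9 had no read. The part of other cells in the reads of Dusp9 was not tested. Dusp6 made up 98.8 ± 0.314% of the cytoplasmic class per kb.

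Dusp10, a phosphatase of p38 and JNK, led the stress-kinase class with 63.3, 142, 64.5 and 88.0 CPM (89.4 ± 36.9 CPM, 29.4 ± 12.1 CPM per kb). Replicate 2 was the highest, and 1 and 3 were nearly equal. Dusp16, a phosphatase of JNK and p38, had 49.8, 21.2, 36.7 and 40.0 CPM (36.9 ± 11.9 CPM). Dusp8, a phosphatase of the same kinases known from brain and heart, had 33.5, 21.0, 12.2 and 28.9 CPM (23.9 ± 9.32 CPM). In CPM, Dusp16 was the higher of the pair in each library, though by only 282 against 280 reads in replicate 2, but its exons are longer (7798 against 4870 bases), and per kb the means were 4.74 ± 1.52 for Dusp16 and 4.91 ± 1.91 for Dusp8.

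**Figure D2:**
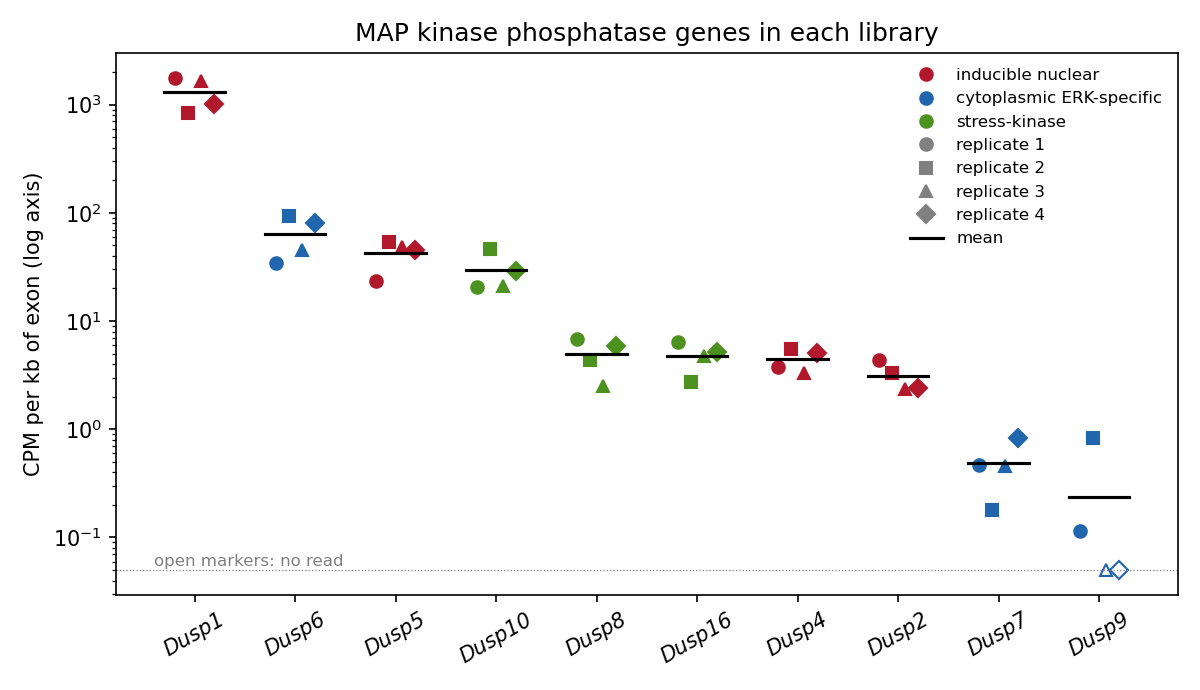
CPM per kb of exon (log axis) of the 10 members in replicates 1 to 4, ordered by mean; colours give the class, symbols the replicate, bars the mean, and open markers libraries without a read. Dusp1 lies between 843 and 1774 CPM per kb, above every value of the other members, and Dusp7 and Dusp9 lie below 1 CPM per kb.

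The order of mean levels per kb was thus Dusp1, Dusp6, Dusp5, Dusp10, Dusp8, Dusp16, Dusp4, Dusp2, Dusp7 and Dusp9. Neighbours with reads in all libraries gave 8 pairs, compared by the log2 ratio of CPM per kb within each library and an exact two-sided sign-flip test. With 4 libraries this test cannot give a p below 0.125, so no pair can pass 0.05 and no adjustment was made. The order came from these same libraries, so the direction of each difference was partly fixed by the choice. The p-values are therefore only a description. In 3 pairs the ranges over libraries lay apart. Dusp1 exceeded Dusp6 by 4.42 ± 1.20, Dusp10 exceeded Dusp8 by 2.60 ± 0.82 and Dusp2 exceeded Dusp7 by 2.83 ± 1.15, each in 4 of 4 libraries (exact p = 0.125, n = 4). Dusp5 minus Dusp10 was 0.55 ± 0.47, also positive in 4 of 4 (exact p = 0.125, n = 4), but their ranges overlapped. Dusp6 minus Dusp5 was 0.52 ± 0.42, positive in 3 of 4 (exact p = 0.25, n = 4). In the remaining 3 pairs the difference was smaller than its SD. These were Dusp8 and Dusp16 (0.02 ± 0.66), Dusp16 and Dusp4 (0.06 ± 0.79) and Dusp4 and Dusp2 (0.52 ± 0.53), with exact p of 1, 0.875 and 0.25 (n = 4 each). Only neighbours were compared, so this says nothing of genes further apart in the order. Dusp8 minus Dusp16 changed sign to -0.57, and Dusp16 minus Dusp4 became 0.68, when the longest transcript was taken as the length.

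Summed by class, the inducible nuclear genes made up 96.3, 85.9, 95.8 and 89.8% of the phosphatase signal per kb in replicates 1 to 4. Cytoplasmic ERK-specific genes made up 1.87, 8.99, 2.57 and 6.83%, and stress-kinase genes 1.82, 5.10, 1.60 and 3.39%. On the log2 scale the nuclear class exceeded the cytoplasmic class by 4.47 ± 1.17 (22.2 times) and the stress-kinase class by 5.11 ± 0.86 (34.5 times), each in 4 of 4 libraries. The cytoplasmic class exceeded the stress-kinase class by 0.64 ± 0.42, with 0.04 in replicate 1 and 0.68 or more in the others. With class means of log2(CPM per kb + 0.1), in which every member counts equally, this ratio turned to -2.17 and that of nuclear to stress-kinase genes became 1.78.

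Most of the nuclear excess was Dusp1. Without it, an alternative chosen after its level was seen, the nuclear class fell below the cytoplasmic class, with a log2 ratio of -0.28 ± 0.40 that was negative in 3 of 4 libraries and 0.23 in replicate 3. Against the stress-kinase class the ratio was then 0.36 ± 0.43, positive in 3 of 4 libraries and -0.11 in replicate 1. Among these 9 genes the nuclear, cytoplasmic and stress-kinase classes held 33.4 ± 5.78, 40.5 ± 6.04 and 26.1 ± 5.30% of the signal per kb. Each share was carried mainly by a single gene (Dusp5, Dusp6 and Dusp10).

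**Figure D3:**
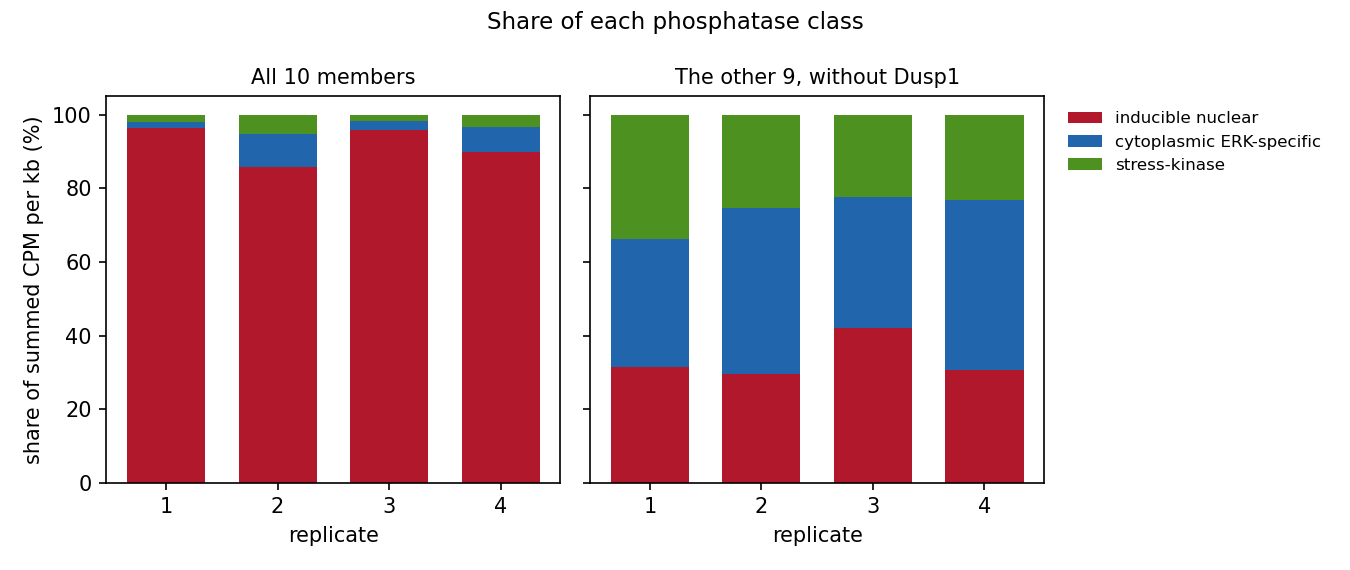
Share of summed CPM per kb (%) of each class in replicates 1 to 4, for all 10 members (left) and for the other 9 without Dusp1 (right). With Dusp1 the nuclear class takes 85.9 to 96.3%, and without it 29.6 to 42.0%.

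The spread between libraries was read as the SD of log2(CPM + 1). A mean of 10 CPM was reached by 7 of the 10, and 0 of these 7 showed an SD of log2(CPM + 1) of 1 or more, against 2.08% of all 9202 genes of that level. With 7 genes that background amounts to less than 1 gene, so the count sets the members apart from nothing. Dusp6 was the widest with 0.68, at the 60.6th percentile, followed by Dusp8 with 0.61. Dusp4 was the most even with 0.32, at the 10.5th percentile. The median of the 7 was 0.53 and that of all such genes 0.62. This order held only without the GC correction described below, which made Dusp5 the widest and Dusp1 the most even.

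**Figure D4:**
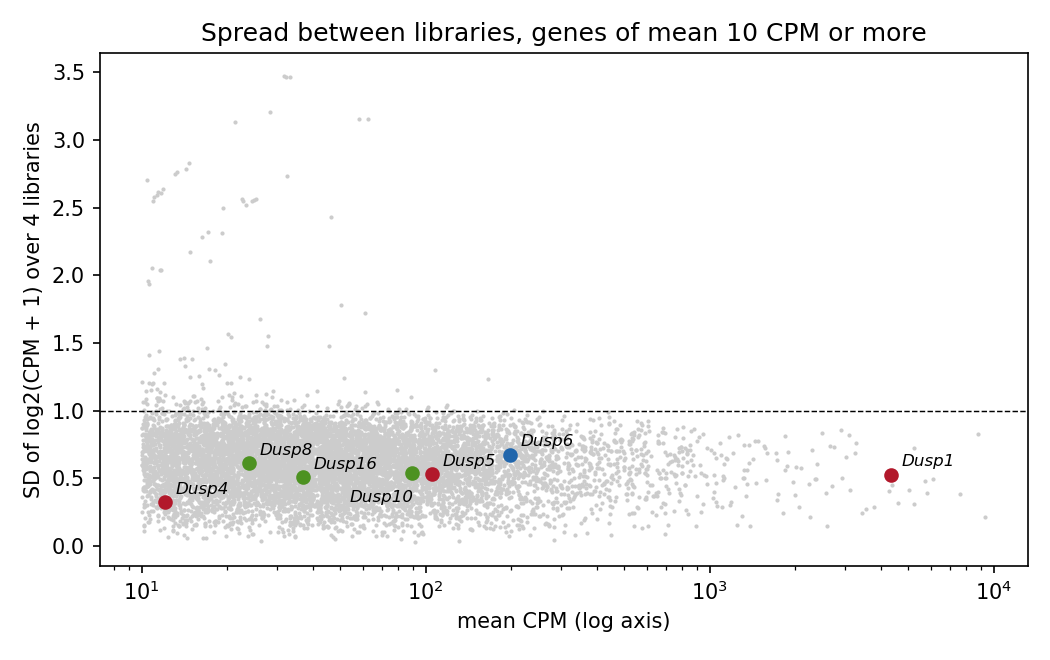
SD of log2(CPM + 1) over 4 libraries against mean CPM (log axis) for 9202 genes of mean 10 CPM or more (grey), with 7 members coloured by class (red nuclear, blue cytoplasmic, green stress-kinase). All 7 lie below the dashed line at an SD of 1, between 0.32 (Dusp4) and 0.68 (Dusp6).

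Members of 1 class did not share a profile across libraries. Dusp1 was highest in replicate 1 and lowest in replicate 2, as were 6.26% of genes of mean 10 CPM or more. Of the other 6 members of that level only Dusp16, a stress-kinase member, had the same extremes. Dusp6 was highest in replicate 2 and lowest in replicate 1, as were 5.38% of genes, and so were Dusp5 (nuclear) and Dusp10 (stress-kinase). The distance between profiles, the root mean square difference of centred log2(CPM + 1) over 4 libraries, was smallest for Dusp4 and Dusp10 (0.25) and for Dusp6 and Dusp10 (0.26), and largest for Dusp1 and Dusp6 (1.04). These profiles rest on 4 libraries and are given as a description.

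**Figure D5:**
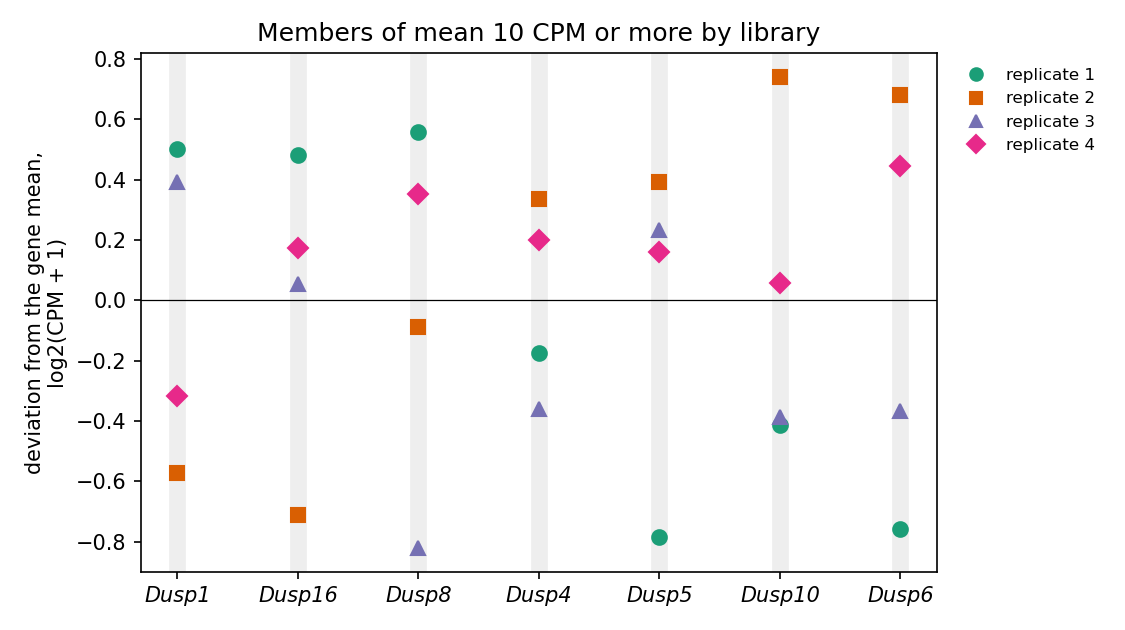
Deviation of each library from the gene's mean on the log2(CPM + 1) scale for 7 members of mean 10 CPM or more; symbols and colours give the replicate. Dusp1 and Dusp16 are highest in replicate 1 and lowest in replicate 2, and Dusp5, Dusp10 and Dusp6 are highest in replicate 2 and lowest in replicate 1.

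Transcript GC content moved with the libraries. Across 9195 genes, which are not independent replicates, the deviation of a library correlated with GC content with a Spearman coefficient of 0.435, 0.219, 0.006 and -0.555 in replicates 1 to 4. After the median of genes of like GC content was removed in each of 20 bins, a step added after the data were seen, Dusp6 was still highest in replicate 2 and lowest in replicate 1, with an SD of 0.68. The SD of Dusp5 rose from 0.53 to 0.75, that of Dusp8 from 0.61 to 0.72 and that of Dusp4 from 0.32 to 0.55, and that of Dusp1 became the smallest at 0.44. Dusp16 also kept both extremes. Dusp1 was still lowest in replicate 2, but highest in replicate 3. The highest library of Dusp4, Dusp5 and Dusp8 became replicate 4, the lowest of Dusp4 became replicate 1, and the lowest of Dusp10 became replicate 3. In replicate 1 Dusp1 and Dusp6 stayed opposite after this step, with deviations of 0.20 (0.50 before) and -0.72. In replicate 4 both were then above their means, at 0.12 (-0.32 before) for Dusp1 and 0.43 for Dusp6.

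The genes with the profile closest to each member were named by the same distance. For Dusp1 these were Serac1 (0.030), Gtpbp6 (0.037) and Brf2 (0.055). For Dusp6 they were Rsrc1 (0.072), Prickle1 (0.074) and Cnksr3 (0.087). Clip2, Cep57 and Mapk6 lay closest to Dusp5, Tmem126a, Ifnar2 and Atp2a2 to Dusp10, and Fkbp7, Sertad2 and Cdpf1 to Dusp4. Rpl23, Rpl5 and Arhgef5 lay closest to Dusp8, and 9930104L06Rik, Acad11 and Mical3 to Dusp16. With so many genes and only 4 libraries, some profiles lie close to that of any gene. Such small distances are thus no evidence of a relation. No GC correction was applied to these profiles.

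Immediate early genes gave the setting for Dusp1. All 18 listed genes reached 1 CPM in every library, with a median of 377 CPM per kb and summed levels of 27181 to 40785 CPM. Dusp1 lay below Fos, a subunit of AP-1, by a log2 ratio per kb of -0.72, -0.87, -0.95 and -1.06 in replicates 1 to 4, a mean of -0.90 ± 0.14. It lay below Ier2 (-0.66 ± 0.20) and the antiproliferative gene Btg2 (-0.31 ± 0.19) in all 4 libraries, and above the zinc finger factor Egr1 in 2 of 4 (0.13 ± 0.43). The ratio to Fos thus varied by less than Dusp1 itself, whose SD was 0.53. None of the 18 had both extremes of Dusp1, against 6.26% of all genes of mean 10 CPM or more. At that share, finding none among 18 genes sets them apart from nothing. Fos, Btg2, Egr1, Egr2, Atf3, Nr4a1 and Ier3 were also lowest in replicate 2, but highest in replicate 3. Klf6, Ier5, Fosb, Klf4 and Jund went the other way, highest in replicate 2 and lowest in replicate 3, and the remaining genes of the list had other extremes. After the GC correction described above, Dusp1 itself was highest in replicate 3 and lowest in replicate 2, like Fos and the genes named with it. The extremes given for these genes are without that correction. Genes named here by their extremes were chosen after their values were seen. These genes are known to be induced by tissue dissociation, and the part of the isolation in the level of Dusp1 was not tested.

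Genes known to respond to ERK were compared with Dusp6. All 14 listed feedback and target genes reached 1 CPM in every library, with a median of 7.87 CPM per kb, and Fos, Egr1 and Phlda1 were highest. None of the 10 at a mean of 10 CPM or more had both extremes of Dusp6, against 5.38% of all genes of that level. At that share, finding none among 10 genes sets them apart from nothing. Spry1, an inhibitor of receptor tyrosine kinase signalling that acts in quiescent satellite cells, had 123, 51.5, 155 and 112 CPM. It was lowest in replicate 2, where Dusp6 was highest, and the log2 ratio of Dusp6 to Spry1 ran from -0.29 in replicate 1 to 2.40 in replicate 2. Etv5, an ETS factor, had 89.1, 41.9, 45.8 and 41.5 CPM and lay below Dusp6 in 4 of 4 libraries (2.22 ± 1.15 per kb). The ratio of Dusp6 to Spred1, another inhibitor of the pathway, was steadier at 3.11 ± 0.33. Spry1, Etv5 and Spred1 were chosen after their values were seen.

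The kinases on which these phosphatases act, and their activators, were detected for the most part. All 9 genes of the ERK cascade reached 1 CPM in every library, with a median of 12.9 CPM per kb. They were led by Mapk3 (ERK1) at 46.6 ± 11.6 and its activator Map2k1 at 34.7 ± 15.5 CPM per kb. Of 11 JNK and p38 cascade genes 8 reached 1 CPM in every library (median 6.20 CPM per kb), led by the p38 activator Map2k3 at 77.8 ± 36.1, Map2k4 at 18.2 ± 8.59 and Mapk14 (p38 alpha) at 17.3 ± 5.24 CPM per kb. Of 10 kinases downstream of them 8 did so (median 2.12 CPM per kb), led by Mapkapk2, Mknk2 and Rps6ka3. All 12 listed serum response, ETS and CREB-family factors did, with Ets1, Ets2 and Atf1 highest and a median of 5.74 CPM per kb.

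Other genes of the same phosphatase fold filled in the picture. Of 19 further genes listed by family as dual specificity phosphatases, 17 reached 1 CPM in every library, with a median of 4.25 CPM per kb. Whether each encodes an active phosphatase, or one that acts on MAP kinases, was not examined. Dusp14 led them with a mean of 20.97 CPM per kb (range 10.5 to 37.6), followed by Dusp13 with 12.96 ± 4.97 and Dusp3 with a range of 9.42 to 18.3 CPM per kb. The mean of Dusp14 was below that of Dusp10, but their ranges overlapped. Dusp21 had no read in any library. None of the 3 tyrosine phosphatases that dock on MAP kinases reached 1 CPM in every library. Ptprr had a mean of 1.08 ± 1.03 CPM, and Ptpn7 and Ptpn5 had 13 and 6 reads over all 4 libraries.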

How the data were processed

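The authors deposited log2 CPM values, each holding the same small offset. Per the submitters' processing notes, Trimmomatic 0.33, FastQC, featureCounts, edgeR and build mm10 were used; the aligner, annotation and strand setting were not given in the sources used here. The offset, 0.0548 CPM, was removed, and 100% of the values were then whole reads within 0.01 reads. With 1 group, no count model was used.

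Of 21255 identifiers (1 row for each symbol, the highest kept), 21215 matched GENCODE M21, which gave summed exon lengths and, from each longest transcript, GC content. Detection means 1 CPM or more in every library, and variable means an SD of log2(CPM + 1) of 1 or more at a mean of 10 CPM or more. Floors are 3 reads. Intervals are 95% Wilson, and cover counting error only because amplified reads without molecular identifiers are not independent. Upstream sequences are from RefSeq (GRCm38.p6). Read recovery and profile distances were tested on simulated reads. The members and lists were chosen with earlier results of these data known. Named genes are all members, the 3 highest per kb of each list, those without reads, genes overlapping a member's exons, and the 3 closest profiles of each member of mean 10 CPM or more. Some genes that this rule names are not reported here. Python 3.11.15, numpy 2.4.6, pandas 2.3.3 and scipy 1.17.1 were used.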

Additional observations from a re-analysis of the deposited data

Results flagged for a closer look

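Each of 66 values (members, class ratios, neighbouring pairs and named genes) was searched for a single library set apart by Dixon's criterion, and 3 were found; chance gives about 1 in 20. None was a member, a class ratio or a pair of members. Gsn had 1453 CPM in replicate 2, against 1155 to 1199 CPM in the others. Ptpn5 had 0.451 CPM (6 reads) in replicate 2 and Tnmd 10.9 CPM in replicate 3, and neither had a read in the other libraries. A gene with reads in a single library meets this criterion whatever its level. The rate of 1 in 20 thus does not apply to Ptpn5 and Tnmd.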

How the results depend on the processing

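No paired analysis was possible because there is 1 group, so replicate numbers pair nothing. The number of detected members was 7 to 9 and that of variable members stayed at 0 under the alternatives run, which included trimmed-mean and median-of-ratios scaling, other minimums and pseudocounts, and leaving out each library. Counts of detected genes in the pathway lists stayed within 1.5 times of those reported. Of the member levels, Dusp1 and Dusp16 moved by more than their SD, to 1886 and 7.24 CPM per kb, with the longest transcript as length. The class ratios kept their sign when a library was left out, at 4.06 to 4.87 (nuclear over cytoplasmic), 4.84 to 5.45 (nuclear over stress-kinase) and 0.51 to 0.84 (cytoplasmic over stress-kinase). Without Dusp1 the first became -0.28 and the second 0.36. With class means of log2(CPM per kb + 0.1) the second became 1.78 and the third -2.17, where Dusp7 and Dusp9 count as much as Dusp6, and with the highest member of each class the third was 1.07. Dusp8 over Dusp16 turned to -0.66 without length correction and to -0.57 with the longest transcript, and ran from -0.20 to 0.33 when a library was left out. Dusp16 over Dusp4 turned to -0.012 with a pseudocount of 1 CPM, ran from -0.16 to 0.43 when a library was left out, and was 1.57 without length correction and 0.68 with the longest transcript. The other 6 pairs kept their sign under all alternatives run. Depth limits Dusp7 and Dusp9, at 0 to 35 reads per library.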
